A study of Mus musculus with 6 samples.

Results

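The genes described here are the sorting nexins, the vacuolar protein sorting genes and the charged multivesicular body protein genes measured in mouse platelets. They were chosen by name alone: every gene in the count table whose Entrez identifier maps to a mouse protein-coding symbol made of Snx, Vps or Chmp and a number, apart from 1 gene that is not analysed here. This gave 65 genes (23 Snx, 33 Vps and 9 Chmp) of the 9822 genes in the table. A further 9 such symbols of the RefSeq annotation have no row in the table: Chmp4c, Snx7, Snx14, Snx16, Snx21, Snx22, Snx24, Snx33 and Vps37d. No measured value entered the choice.

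PolyA RNA was sequenced from platelets of BalB/c males that were either Nxf1+/C587R, that is heterozygous for 1 altered copy of the nuclear mRNA export receptor gene Nxf1, or wild-type littermates. Age, treatment and any other allele are not stated in the labels. Suspensions from single males with over 98% CD41+ events were pooled by genotype, and 1 pool of each genotype was prepared on each of 3 days (the labels number them as batches 1 to 3, read here as days). Each genotype therefore has 3 libraries. No source used here gives the number of animals in a pool, and p-values measure the spread between pools. The wild-type libraries are also part of another series by the same submitters. Because the mutation is labelled as an amino acid change, the Nxf1 level cannot check the genotype: it was 3.29 ± 0.894 CPM in mutants and 3.73 ± 1.05 CPM in wild types (SD, n = 3 each), a log2 fold change of -0.19 ± 0.22 (SE, edgeR adjusted p = 0.604).

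Platelets carry no nucleus and inherit their RNA from megakaryocytes, together with granules that are built through multivesicular bodies. Proteins that reach an endosome are either returned to other membranes or sent on for storage or degradation. Sorting nexins bind phosphoinositides on the endosome through a PX domain, and those with a BAR domain also bend the membrane into tubules. Retromer and retriever select cargo for return, the CORVET and HOPS complexes tether endosomes and lysosomes before fusion, and the GARP and EARP complexes tether returning vesicles. The ESCRT complexes sort ubiquitinated cargo into the vesicles inside multivesicular bodies: ESCRT-I and ESCRT-II gather it, ESCRT-III filaments of CHMP proteins cut the vesicle off, and the ATPase VPS4 takes the filaments apart.

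The 6 libraries held 25189231 to 29421549 counts, and levels are given as CPM, counts scaled to a common library size after TMM correction. Of 11 platelet markers, 6 were called higher and 1 lower in mutants, and their summed level was 41999 to 46253 CPM in mutants against 32327 to 39166 CPM in wild types. Among markers of other blood cells, 4 of 8 B cell genes were called lower, with a summed level of 248.6 to 314.0 CPM in mutants against 320.1 to 429.4 CPM in wild types. All 5 measured T cell genes of 6 listed were left uncalled, with sums of 12.6 to 16.7 CPM in mutants against 14.0 to 19.8 CPM in wild types. Of 8 neutrophil genes 2 were in the table, neither called, summing to 9.88 to 16.2 CPM against 7.85 to 14.4 CPM, while Ly6g, Elane, Mpo, Camp, Ltf and Ngp have no row. Of 6 monocyte genes Lyz2 was called higher and Ly6c2 lower, and the sum, nearly all Lyz2, was 1771 to 2085 CPM against 1154 to 1592 CPM. The day-1 pools of both genotypes stood apart in erythroid RNA: the 6 measured genes summed to 31513, 3968 and 4558 CPM in the mutant pools of days 1 to 3 and to 35714, 4305 and 4427 CPM in the wild-type pools. None of these genes was called. Within a genotype, a chi-square comparison of 2 pools gave a mean of 86.0 to 104.4 per gene for day 1 against another day and of 14.7 to 17.9 for day 2 against day 3, so counts without the day-1 pools are given below. The part of these levels in the results below was not tested, and in such bulk pools fewer cells of a type and less RNA per cell cannot be told apart.

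Of the 65 genes, 9 were called higher and 3 lower in mutant platelets, and 53 were not called (edgeR quasi-likelihood test with genotype as the only term, adjusted p of 0.05 over all 9822 genes). The 9 higher genes were the sorting nexins Snx3, Snx5 and Snx10, the ESCRT-I and ESCRT-II genes Vps25, Vps37a and Vps37b, the ESCRT-III genes Chmp1a and Chmp5, and the lipid transfer gene Vps13a, with log2 fold changes of 0.36 to 0.56. The 3 lower genes were Snx30, which fell to 30.8% of its wild-type level, Vps53 and Chmp1b. Across all genes tested, 12.9% were called higher and 9.16% lower, so the share of these genes called higher, 13.8%, lies near that of all genes, and the share called lower, 4.62%, is below it. In each of the 12 called genes the 3 mutant libraries did not overlap the 3 wild-type libraries, which also fixes the same direction on each of the 3 days. The calls were made from these same libraries, so this describes the called genes and adds no separate support.

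**Figure D1:**
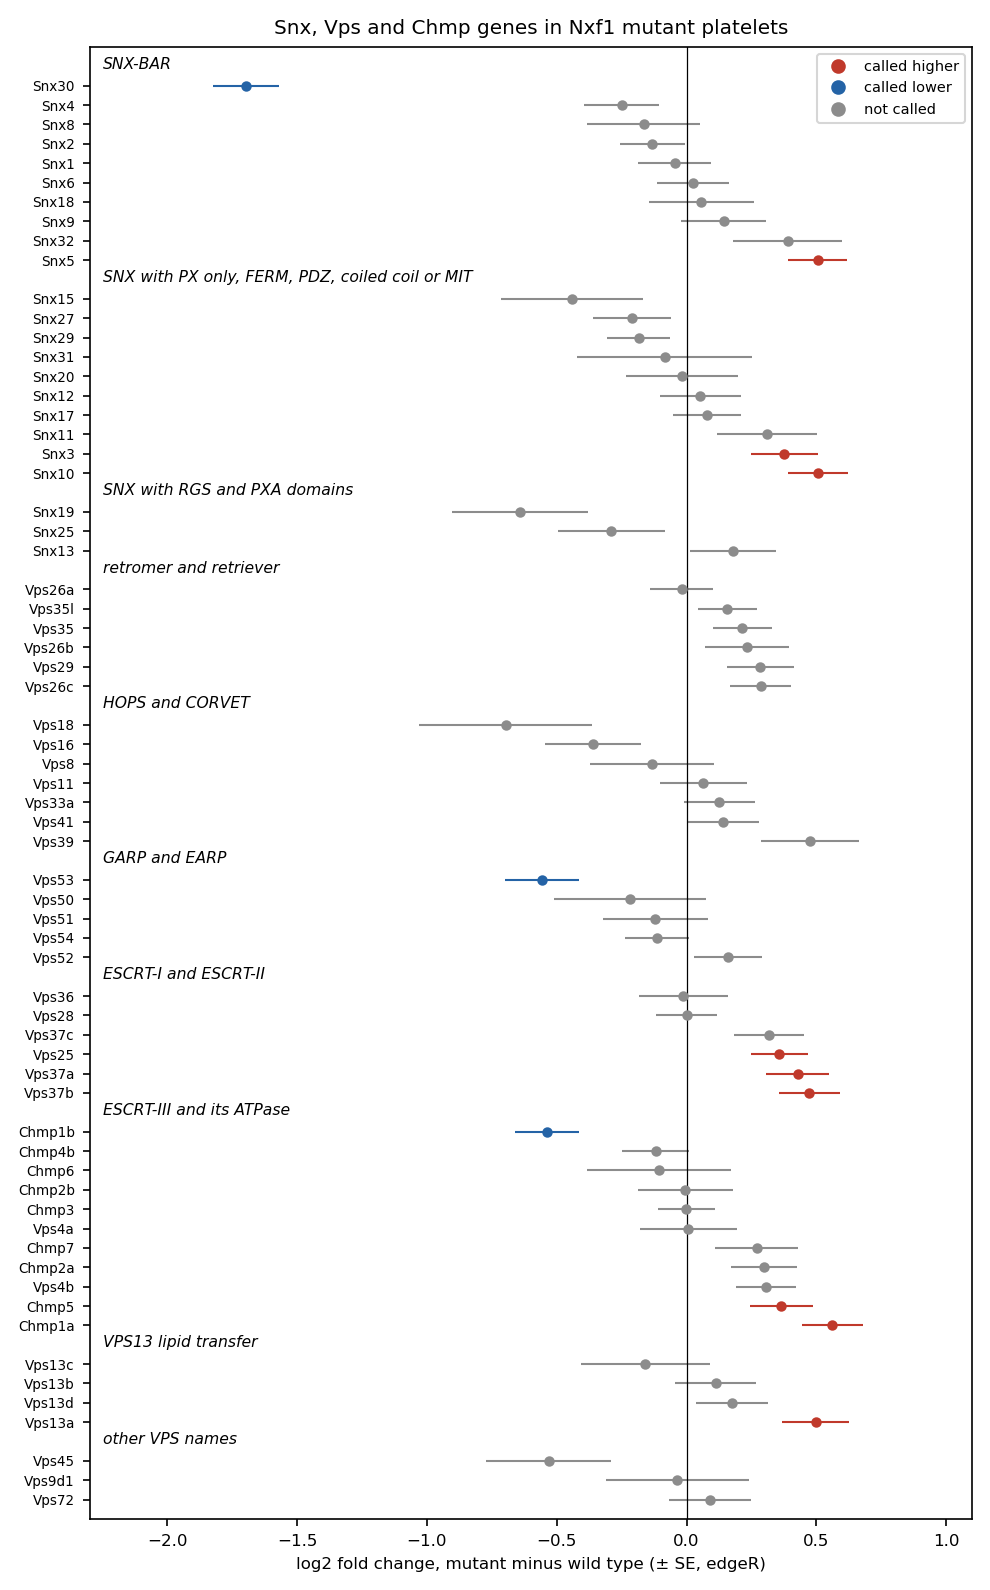
Log2 fold change (mutant minus wild type, edgeR, bars are the SE) of each of the 65 genes, grouped by the complex or domain class of the protein. Snx30 stands far to the left at -1.70, and the 9 genes called higher lie between 0.36 and 0.56.

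Without regard to the test, all 3 mutant libraries lay above all 3 wild-type libraries for 17 of the 65 genes, against 20.4% of all genes, and below them for 8, against 15.9% of all genes. The other 40 overlapped. The median log2 fold change was 0.05 over the 65 genes and -0.04 over all genes, and with scaling by library size alone these became -0.03 and -0.13. As a share of all counts, which needs no scaling factor, the 65 genes took 0.195%, 0.203% and 0.202% of the mutant libraries on days 1 to 3, and 0.178%, 0.182% and 0.189% of the wild-type libraries. The shares did not overlap between genotypes, but abundant genes weigh most in such a sum. By class, sorting nexins with neither a BAR nor a PXA domain, ESCRT-I and ESCRT-II genes and VPS13 genes had higher shares in every mutant library. GARP and EARP genes had lower shares in every mutant library, and the shares of the other classes overlapped. Abundant genes, some of them called above from the same counts, weigh most in these class sums too. Median log2 fold changes were 0.02, 0.34 and 0.14 in the classes with higher shares, in that order, and -0.12 for GARP and EARP genes. In the first of these classes 5 of 10 genes were above 0.

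The number of genes called higher depended on which pools entered the fit. It was 2 without the mutant pool of day 1, 3 without that of day 2 and 10 without that of day 3, where 7.19%, 6.66% and 13.1% of all genes were called higher. It was 6, 4 and 8 without the wild-type pools of days 1, 2 and 3, where the share of all genes was 9.19%, 9.26% and 11.1%. The 3 lower calls were made in each of these 6 fits. Without both day-2 pools no member was called higher by edgeR, with 6 at an unadjusted p under 0.05, and 4.94% of all genes were. Without both pools of day 1 there were 2 higher calls, Chmp1a and Vps13a, and 2 lower, Snx30 and Chmp1b (5.98% and 6.21% of all genes), and without both pools of day 3 there were 11 higher calls (14.2%). Days pair the pools, and with the day as a block in edgeR the calls rose to 16 higher and 8 lower, where 22% of all genes were called higher and 18% lower. The added calls were Vps26c, Vps29, Vps35, Vps39, Vps37c, Chmp2a and Vps4b as higher and Snx4, Snx15, Snx19, Snx29 and Vps16 as lower. DESeq2 with the same block called 12 higher and 3 lower (16% and 9.29% of all genes): of the added calls it made those of Vps26c, Vps37c and Vps4b and none of the lower ones. Without the block DESeq2 called 8 higher and 3 lower (11.6% and 7.47% of all genes), and limma-voom also 8 and 3 (12.7% and 8.78%). At an unadjusted edgeR p under 0.05, 15 were higher and 6 lower, where 18.5% and 14.3% of all genes were.

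The SNX-BAR proteins form paired dimers that tubulate endosomes, and 10 of the 12 listed genes were measured. Snx30 was called lower and Snx5 higher. SNX30 can pair with SNX4 in a complex that returns cargo from endosomes and takes part in autophagy. Snx30 (Entrez 209131, chr4:59805131-59904740 in GRCm38.p6) stood at 8.54, 8.66 and 8.34 CPM in the mutant pools of days 1 to 3 and at 30.5, 28.6 and 23.8 CPM in the wild-type pools. Every mutant pool was below every wild-type pool, and the 3 mutant values lay close together. The means of 8.51 ± 0.158 and 27.6 ± 3.43 CPM (SD, n = 3 each) give a log2 fold change of -1.70 ± 0.13 (SE, edgeR adjusted p = 2.47e-08). Among all 9822 genes this is the 72nd lowest value, and it is the 15th lowest of the 3017 genes whose mean reached 10 CPM. Snx30 was called lower under all 19 alternative settings, with log2 fold changes of -1.86 to -1.66.

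Snx4 itself stood at 7.94, 6.33 and 7.68 CPM in mutants and 9.31, 8.69 and 8.14 CPM in wild types. Its mutant pools lay below its wild-type pools by a small margin, and the log2 fold change of -0.25 ± 0.14 was called with the day as a block in edgeR (adjusted p = 0.0444) and neither without it (0.244) nor with it in DESeq2. SNX5 is a cargo-binding SNX-BAR protein that pairs with SNX1 or SNX2, as do its relatives SNX6 and SNX32. Snx5 stood at 94.2, 98.7 and 87.2 CPM in mutants and 62.0, 71.4 and 63.9 CPM in wild types, a log2 fold change of 0.50 ± 0.11 (SE, edgeR adjusted p = 0.00284). Without the mutant pool of day 2 the value was 0.42 and the adjusted p 0.0655. Its exons share 4.93% of their bases with Mgme1 on the other strand, which was also called higher (0.45, edgeR adjusted p = 0.024), and the library kit does not mark strand.

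The partners and relatives of Snx5 were not called. Snx2, the second most abundant SNX-BAR gene per base of transcript, stood at 17.7, 16.8 and 17.4 CPM in mutants and 16.0, 19.6 and 21.3 CPM in wild types, which overlap (log2 fold change -0.13 ± 0.13). Snx1 had a log2 fold change of -0.05 ± 0.14 and Snx6 one of 0.02 ± 0.14. Snx32 had 0.39 ± 0.21, with the 3 mutant pools at 2.09 to 2.25 CPM above the wild-type pools at 1.43 to 1.83 CPM (edgeR adjusted p = 0.208). Its exons share 13.2% of their bases with Cfl1 on the other strand, which was far more abundant. Cfl1 stood at 1682 CPM in mutants and 1160 CPM in wild types and was called higher (0.54, edgeR adjusted p = 0.00388). The part of Cfl1 reads in the Snx32 level was not tested. Snx8, Snx9 and Snx18 lay between -0.17 and 0.14 with overlapping pools.

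Among sorting nexins without a BAR domain, 10 of 14 listed were measured, and Snx3 and Snx10 were called higher. SNX3 carries little beyond its PX domain and brings retromer to early endosomes, and SNX10, of similar build, is known for its part in osteoclasts, where its loss causes osteopetrosis. The RefSeq bases just before these 2 genes (GRCm38.p6, plus strand, 5′ to 3′, ending before the first annotated exon) are shown because Snx3 and Snx10 were the most abundant sorting nexins per base of transcript and both were called higher. Capitals mark TGTGGT, the core letters of the RUNX motif.

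Snx3 chr10:42501804-42502029: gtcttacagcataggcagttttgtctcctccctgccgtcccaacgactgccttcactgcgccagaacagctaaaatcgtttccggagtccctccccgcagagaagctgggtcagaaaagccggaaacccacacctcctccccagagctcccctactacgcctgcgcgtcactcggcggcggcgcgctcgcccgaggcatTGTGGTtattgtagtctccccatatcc

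Snx10 chr6:51523653-51523899: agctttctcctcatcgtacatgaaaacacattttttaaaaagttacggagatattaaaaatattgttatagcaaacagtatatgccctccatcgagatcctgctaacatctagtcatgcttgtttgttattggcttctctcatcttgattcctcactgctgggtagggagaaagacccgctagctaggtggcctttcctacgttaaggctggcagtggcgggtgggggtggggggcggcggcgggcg

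A promoter of RefSeq was found for 43 of the 65 genes, and the 250 bases before each start were searched on both strands for 4 motifs, none of which contains another. TGTGGT was found in 5 of the 43, against 10.4% of 7606 promoters of measured genes. The E-box CACGTG was in 6 of 43 (8.52% of all), the ETS core CCGGAAG in 8 of 43 (15.1% of all) and the GATA letters AGATAA in 2 of 43 (5.88% of all). Among the 7 genes called higher that had a promoter, the E-box, ETS and RUNX letters were each in 1 and the GATA letters in 0. These are matches of letters and not binding sites.

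Snx10 stood at 234.8, 222.7 and 214.1 CPM in mutants and 165.0, 171.3 and 136.8 CPM in wild types. The lowest mutant pool was well above the highest wild-type pool, and the log2 fold change was 0.51 ± 0.12 (SE, edgeR adjusted p = 0.0032). Leaving out the mutant pool of day 1 gave 0.43 and an adjusted p of 0.0563. Snx3 stood at 205.8, 195.1 and 158.6 CPM in mutants and 156.7, 153.0 and 121.1 CPM in wild types, so that the lowest mutant pool only just exceeded the highest wild-type pool. Its log2 fold change of 0.38 ± 0.13 (SE, edgeR adjusted p = 0.0401) is the least stable call of the 12: it held in 7 of 19 settings, and was lost with DESeq2 (0.0595), with limma-voom (0.054) and without any 1 pool other than the mutant pool of day 3 (0.0796 to 0.324).

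The other 8 genes of this class were not called. Snx27, which links retromer to cargo through a PDZ domain, lay at 4.996 to 6.04 CPM in mutants, below the 6.11 to 6.65 CPM of wild types (log2 fold change -0.21 ± 0.15). Snx17, which recognises cargo for retriever, was at 15.0 to 18.6 CPM against 14.1 to 17.7 CPM. Snx15 had a log2 fold change of -0.44 ± 0.27 at 1.22 to 2.12 CPM in mutants against 1.66 to 3.17 CPM in wild types. Some sorting nexins with RGS and PXA domains link the endoplasmic reticulum to other organelles, and 3 of the class were measured. With no block these had no call by edgeR, DESeq2 or limma-voom, with 0 higher and 1 lower at an unadjusted edgeR p under 0.05. That gene was Snx19, at 0.783, 0.858 and 0.668 CPM in mutants and 1.31, 1.12 and 1.16 CPM in wild types (-0.64 ± 0.26, edgeR adjusted p = 0.0902). With the day as a block edgeR called Snx19 lower (adjusted p = 0.0373), and DESeq2 did not. Snx13 was at 8.12 to 8.50 CPM in mutants within the 5.43 to 8.97 CPM of wild types, and Snx25 at 1.93 to 2.91 CPM against 2.67 to 3.49 CPM.

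**Figure D2:**
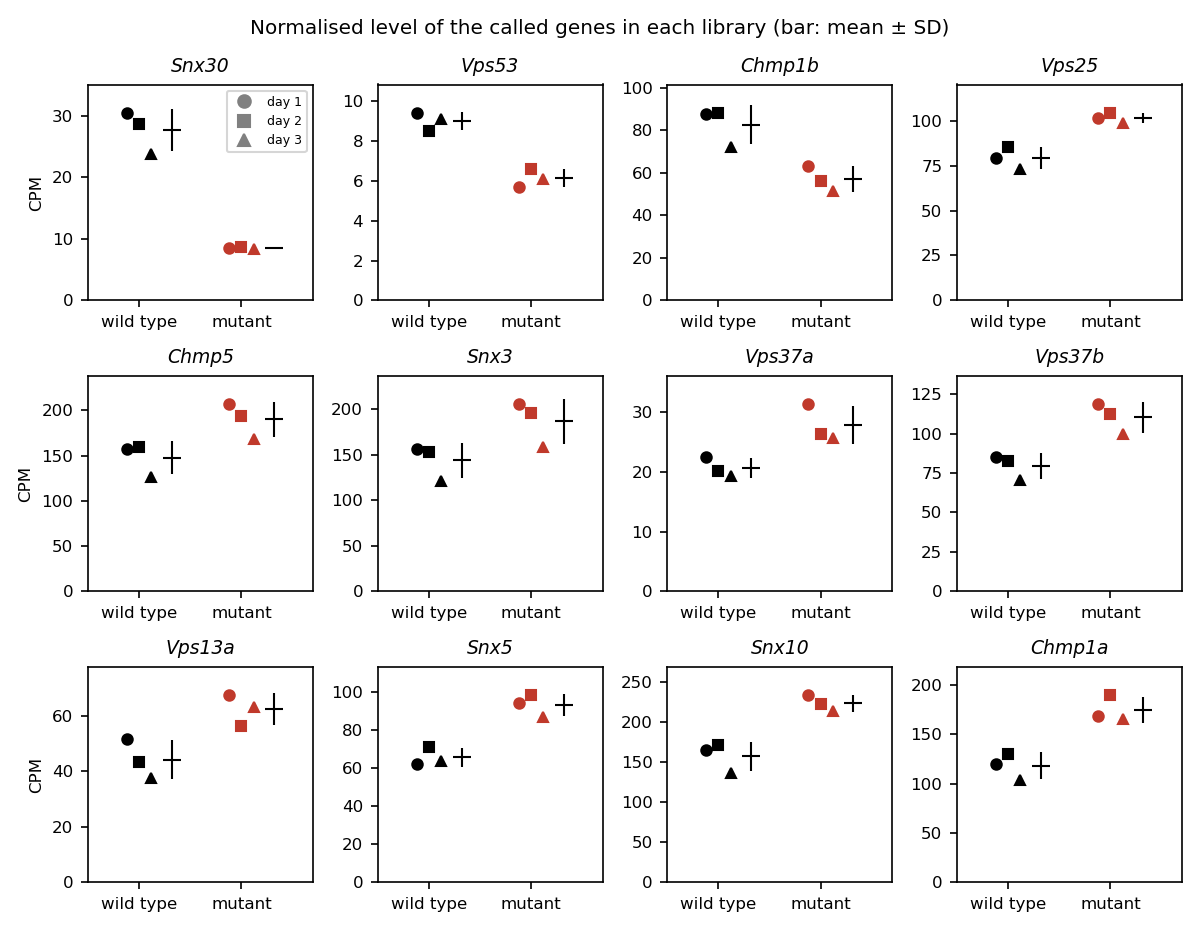
CPM of the 12 called genes in each library, with wild type in black, mutant in red and 1 symbol per preparation day; the cross is the mean with its SD (n = 3), and each vertical axis starts at 0. Mutant and wild-type libraries do not overlap in any panel, and relative to its level the gap is widest for Snx30.

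None of the 6 retromer and retriever genes was called by edgeR, DESeq2 or limma-voom, with 2 higher and 0 lower at an unadjusted edgeR p under 0.05. Retromer is the trimer of VPS35, VPS29 and a VPS26 protein, and retriever is its relative made of VPS35L, VPS26C and VPS29. Of the 6 log2 fold changes 5 were above 0, at 0.16 to 0.29, and Vps26a was at -0.02. With the day as a block edgeR called 3 higher: Vps26c (0.29 ± 0.08, edgeR adjusted p = 0.000991), Vps29 (0.29 ± 0.08, 0.00174) and Vps35 (0.22 ± 0.08, 0.0195). DESeq2 with the block called Vps26c of these, and Vps29 had an adjusted p of 0.0574 there. Vps29, shared by both complexes, stood at 18.6, 18.95 and 16.8 CPM in mutants and 13.6, 17.4 and 13.7 CPM in wild types. Its lowest mutant pool lay below its highest wild-type pool. Vps35l, close to Vps29 as the most abundant of the 6 per base of transcript, stood at 64.2, 66.9 and 60.2 CPM in mutants and 60.2, 60.5 and 51.0 CPM in wild types, with 5.09% of its exon bases shared with Knop1 on the other strand, a gene that was called higher.

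None of the 7 genes of HOPS and CORVET was called by edgeR, DESeq2 or limma-voom, with 1 higher and 1 lower at an unadjusted edgeR p under 0.05. VPS11, VPS16, VPS18 and VPS33A form the core of both complexes, VPS39 and VPS41 mark HOPS, and VPS8 marks CORVET. Log2 fold changes ran from -0.70 ± 0.33 for Vps18, at 0.327 to 0.485 CPM in mutants and 0.580 to 0.775 CPM in wild types, to 0.48 ± 0.19 for Vps39, at 4.59 to 6.71 CPM against 3.12 to 4.68 CPM. With the day as a block edgeR called Vps39 higher (adjusted p = 0.000855) and Vps16 lower (0.0206), and DESeq2 called neither. The most abundant genes of the group per base of transcript were Vps41, at 8.39, 7.39 and 8.60 CPM in mutants and 7.58, 6.98 and 7.56 CPM in wild types, and Vps33a, at 8.61, 8.86 and 9.20 CPM against 7.30, 8.61 and 8.53 CPM. Vps41 overlapped between genotypes, and the mutant pools of Vps33a were all above its wild-type pools, barely so at the nearest pair.

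VPS53 is shared by the GARP and EARP complexes, and Vps53 was the only 1 of their 5 genes called. It stood at 5.70, 6.62 and 6.08 CPM in mutants and 9.43, 8.52 and 9.11 CPM in wild types, a log2 fold change of -0.56 ± 0.14 (SE, edgeR adjusted p = 0.00691). All mutant pools were lower, and leaving out any 1 pool kept the call. Without both pools of day 1 the value was -0.51 and the adjusted p 0.0881. Of the Vps53 exon bases 2.88% are shared with Glod4 on the same strand. Glod4 was at 10.4 CPM in mutants and 8.50 CPM in wild types and was not called. Vps54, which marks GARP, was the most abundant of the 5 per base of transcript, at 67.6, 60.0 and 65.2 CPM in mutants and 78.4, 72.1 and 58.3 CPM in wild types, which overlap. Vps52 was at 11.4 to 12.99 CPM against 9.70 to 12.1 CPM, Vps51 had a log2 fold change of -0.12 ± 0.20 and Vps50, which marks EARP, one of -0.22 ± 0.29.

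Of 6 measured ESCRT-I and ESCRT-II genes, edgeR, DESeq2 and limma-voom each called 3 higher and none lower, beside 12.9%, 11.6% and 12.7% of all genes called higher. At an unadjusted edgeR p under 0.05, 4 were higher and 0 lower (18.5% and 14.3% of all genes). VPS37 proteins are alternative subunits of ESCRT-I, and VPS25 is the ESCRT-II subunit that contacts ESCRT-III. Vps37b stood at 118.9, 112.2 and 99.6 CPM in mutants and 85.3, 82.5 and 70.3 CPM in wild types, a log2 fold change of 0.47 ± 0.12 (SE, edgeR adjusted p = 0.00633). Of its exon bases 32.9% overlap Hip1r on the other strand, which was at 5.87 CPM in mutants and 7.32 CPM in wild types and was not called. Vps37a stood at 31.4, 26.3 and 25.6 CPM in mutants and 22.5, 20.1 and 19.2 CPM in wild types (0.43 ± 0.12, edgeR adjusted p = 0.0142). Vps25 stood at 101.6, 104.5 and 98.8 CPM in mutants and 79.0, 85.5 and 73.4 CPM in wild types (0.36 ± 0.11, edgeR adjusted p = 0.0246). In each of these 3 genes every mutant pool was above every wild-type pool.

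These 3 calls were lost in some fits with 5 pools. Vps37b was not called without the mutant pool of day 1 (0.37, edgeR adjusted p = 0.106) or of day 2 (0.41, 0.0792). Vps37a was not called without the mutant pool of day 1 (0.29, edgeR adjusted p = 0.224) or day 2 (0.42, 0.069) or the wild-type pool of day 2 (0.37, 0.0897). Vps25 was not called without either mutant pool of days 1 and 2 (edgeR adjusted p = 0.176 and 0.228) or either wild-type pool of those days (0.121 and 0.0686). The third VPS37 gene, Vps37c, had 0.32 ± 0.13 and was called with the day as a block (edgeR adjusted p = 0.000259) and not without it (0.101). Vps28, the ESCRT-I subunit that binds ESCRT-II, had means of 53.7 ± 4.66 CPM in mutants and 53.7 ± 4.86 CPM in wild types (SD, n = 3 each), and Vps36 had a log2 fold change of -0.01 ± 0.17.

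Of 11 measured genes of ESCRT-III and its ATPase, 2 (18.2%) were called higher and 1 (9.09%) lower, beside 12.9% and 9.16% of all genes. CHMP1A and CHMP1B are close relatives that act late in filament assembly, and their genes were called in opposite directions. Chmp1a stood at 168.3, 189.9 and 165.0 CPM in mutants and 120.3, 130.3 and 103.9 CPM in wild types, a log2 fold change of 0.56 ± 0.12 (SE, edgeR adjusted p = 0.00163). Chmp1b stood at 63.3, 56.4 and 51.4 CPM in mutants and 87.8, 88.3 and 72.1 CPM in wild types, a log2 fold change of -0.54 ± 0.12 (SE, edgeR adjusted p = 0.00325). Neither gene had overlapping pools, and both kept their call when any 1 pool was left out. Without both pools of day 2 the adjusted p was 0.0634 for Chmp1a and 0.0738 for Chmp1b, with the same signs. Chmp1b has 1 exon in its GENCODE transcript with the most exons and Chmp1a has 7, and no exon base of either is shared with another measured gene.

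CHMP5 acts late with the VPS4 cofactor LIP5. Chmp5 stood at 207.6, 194.2 and 169.0 CPM in mutants and 157.0, 159.1 and 126.8 CPM in wild types, a log2 fold change of 0.37 ± 0.12 (SE, edgeR adjusted p = 0.0359). The mutant pools were above the wild-type pools, but the call held in 10 of 19 settings and was lost without any 1 pool other than the mutant pool of day 3 (adjusted p 0.0626 to 0.316). Chmp4b, whose protein is the main filament subunit, was the most abundant of the 65 genes per base of transcript (153.1 CPM per kb in wild types). It stood at 238.1, 245.7 and 195.3 CPM in mutants and 257.0, 278.2 and 202.5 CPM in wild types, which overlap, with a log2 fold change of -0.12 ± 0.13. Vps4b, which encodes 1 of the pair of VPS4 ATPases, was at 34.9 to 37.3 CPM in mutants, above the 25.9 to 32.3 CPM of wild types (0.31 ± 0.12, edgeR adjusted p = 0.068), and Vps4a had a log2 fold change of 0.01 ± 0.19. Chmp2a (0.30 ± 0.13, edgeR adjusted p = 0.107) and Chmp7 (0.27 ± 0.16, 0.258) also had mutant pools above the wild-type pools. Chmp6 had a log2 fold change of -0.11 ± 0.28, and Chmp2b and Chmp3 lay closer to 0.

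VPS13 proteins are long bridges that move lipid between membranes, and loss of VPS13A causes chorea-acanthocytosis. Vps13a was the only 1 of the 4 genes called. It stood at 67.5, 56.4 and 63.1 CPM in mutants and 51.6, 43.2 and 37.7 CPM in wild types, a log2 fold change of 0.50 ± 0.13 (SE, edgeR adjusted p = 0.00754). All mutant pools were higher, by the widest margin on day 3 (log2 ratio 0.74, against 0.39 and 0.38 on days 1 and 2). Without the mutant pool of day 1 the value was 0.39 (edgeR adjusted p = 0.0942), and without the wild-type pool of day 2 it was 0.44 (0.0527). Vps13d stood at 7.64, 7.96 and 7.90 CPM in mutants and 6.61, 7.11 and 7.07 CPM in wild types, above in all pools but not called (0.18 ± 0.14, edgeR adjusted p = 0.412). Vps13b and Vps13c had log2 fold changes of 0.11 ± 0.15 and -0.16 ± 0.25.

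The remaining Vps names belong to none of these complexes. VPS45 binds SNARE proteins at endosomes, VPS9D1 has a VPS9 domain and VPS72 is a subunit of chromatin complexes in the nucleus. None of the 3 was called by edgeR, DESeq2 or limma-voom, with 0 higher and 1 lower at an unadjusted edgeR p under 0.05. Vps45 stood at 0.858, 1.103 and 1.11 CPM in mutants and 1.51, 1.37 and 1.55 CPM in wild types, with no overlap (-0.53 ± 0.24, edgeR adjusted p = 0.13). Vps72 stood at 4.66, 4.98 and 4.23 CPM in mutants and 4.21, 4.24 and 4.55 CPM in wild types, which overlap.

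The genes called higher were among the more abundant ones. All 9 genes called higher had a mean of at least 20 CPM (24.2 to 190.8), as did 1 of the 3 called lower and 10 of the 53 not called. This boundary was chosen after the values were seen. Of all 2031 genes with at least 20 CPM, 33.2% were called higher and 11.9% lower. Across genes, Spearman's rho between mean level and log2 fold change was 0.485 over the 65 genes and 0.28 over all genes. The points share libraries and depth, and low genes have wider errors, so these values are descriptions only. Between transcript length and log2 fold change rho was -0.14 over the 65 genes and 0.10 over all genes. The median exon number, counted in the GENCODE transcript with the most exons, was 7 (range 4 to 74) for the 9 genes called higher. It was 9 (1 to 22) for the 3 called lower and 13 (4 to 85) for the 53 not called. Exon numbers over all genes were not counted, so these values are descriptions only.

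**Figure D3:**
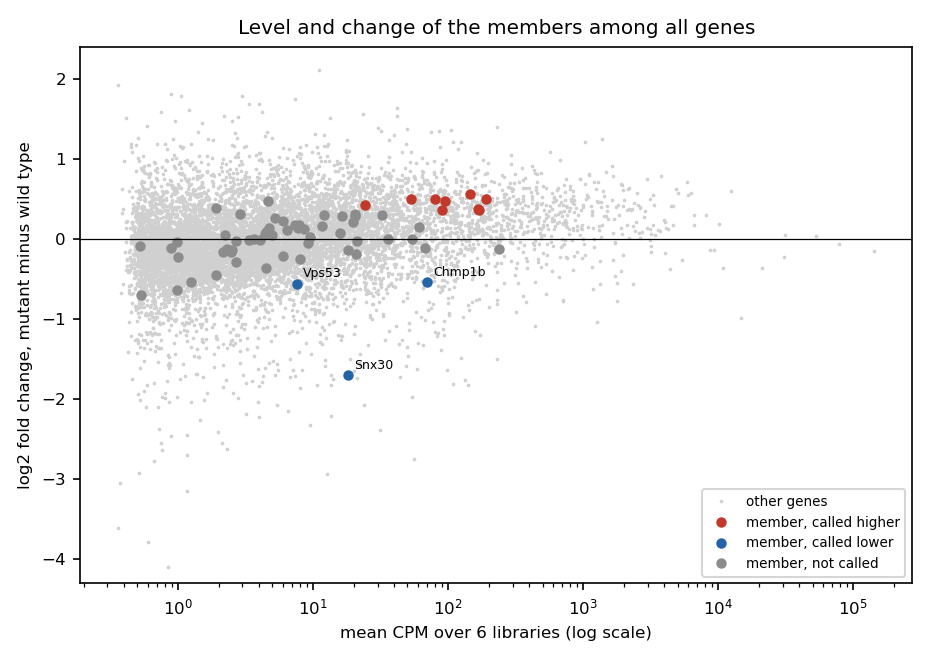
Log2 fold change (mutant minus wild type) against mean CPM over the 6 libraries on a log scale, for the 65 genes in colour and all other genes in pale grey. The 9 genes called higher (red) sit at 24.2 CPM and above, and Snx30, Vps53 and Chmp1b (blue) lie below 0 at mean levels of 18.1, 7.58 and 69.9 CPM.

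Ratios between related genes within a library do not depend on scaling. Of 10 pairs of relatives looked at, chosen with the results known and given with no test, 3 had ratios that did not overlap between genotypes. Each of these 3 holds a gene already called above from the same values. Chmp1a over Chmp1b was 2.66, 3.37 and 3.21 in mutants and 1.37, 1.48 and 1.44 in wild types. Snx4 over Snx30 was 0.930, 0.731 and 0.920 in mutants and 0.305, 0.304 and 0.341 in wild types. CPM is not corrected for transcript length, so these ratios do not rank the 2 genes. Per kb of the deposited length, Snx4 was at 3.00 CPM and Snx30 at 1.13 CPM in mutants. In wild types they were at 3.57 and 3.68 CPM per kb. Snx5 over Snx6 was 10.9, 10.9 and 7.92 in mutants and 6.52, 7.41 and 7.04 in wild types, with day 3 of the mutants close to the wild-type range. The other 7 pairs overlapped across days. Compared within each day, the ratio was higher in the mutant pool on all 3 days for 5 of these 7, lower on all 3 for Vps26a over Vps26b, and mixed for Snx1 over Snx2. Whether a ratio is higher or lower depends on which gene is placed on top. No share over other gene pairs was counted, so these directions are descriptions only. Vps13a over Vps13c was 41.2, 35.4 and 21.8 in mutants and 25.2, 22.1 and 13.4 in wild types, and varied with the day in both genotypes. Vps26a over Vps26b was 3.71, 3.73 and 2.64 in mutants and 4.34, 4.47 and 3.09 in wild types. Vps37b over Vps37a differed little, at 3.79, 4.27 and 3.89 in mutants and 3.79, 4.10 and 3.65 in wild types.

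**Figure D4:**
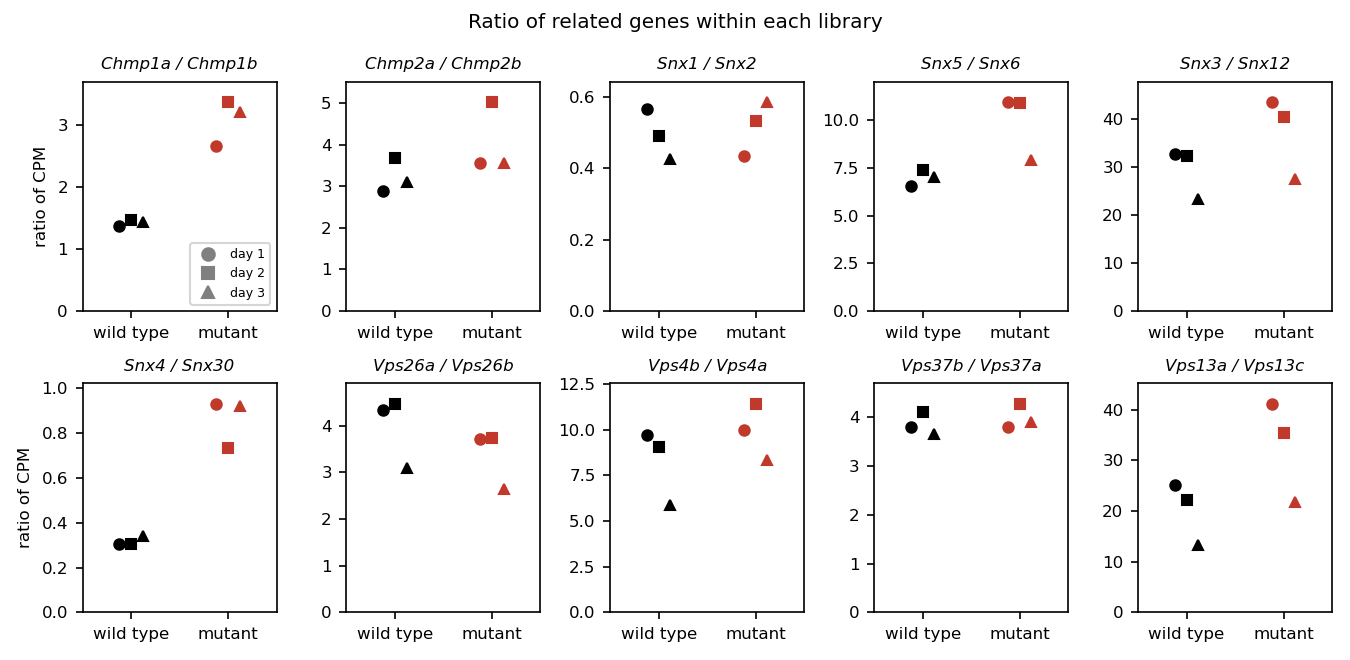
Ratio of CPM of 10 pairs of related genes in each library (wild type black, mutant red, 1 symbol per day, axes from 0). Mutant and wild-type ratios are separate for Chmp1a over Chmp1b, Snx4 over Snx30 and Snx5 over Snx6, and overlap across days in the other 7 panels.

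The 65 genes lie on 20 chromosomes, and 5 share chromosome 19 with Nxf1. Snx32, Snx15, Vps51 and Vps37c lie 1.92 to 3.25 Mb from Nxf1 and were not called. Vps13a, 7.84 Mb away, was the 1 of the 5 that was called. The part of linked sequence in its level was not tested.

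The pathway holds other genes that the naming rule does not take. Of 109 listed endosomal sorting genes 99 were measured, and 19 (19.2%) were called higher and 1 (1.01%) lower, beside 12.9% and 9.16% of all genes, with a median log2 fold change of 0.06. With scaling by library size alone the counts were 10 and 2 (9.73% and 9.25% of all genes), and among the 29 of them with a mean of at least 10 CPM they were 8 and 4 (24.0% and 25.0% of all such genes). With the day as a block edgeR called 29 and 3 (22% and 18% of all genes) and DESeq2 21 and 3 (16% and 9.29%). Without 1 pool at a time the higher calls fell to between 6 and 15. The 6 fits gave 6 without the mutant pool of day 1 or 2 or the wild-type pool of day 1, 15 without the mutant pool of day 3, and 13 and 14 without the wild-type pools of days 2 and 3. Without both pools of day 1, 2 or 3 there were 6, 3 or 20.

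Of 20 measured ESCRT partners 3 (15%, beside 12.9% of all genes) were called higher, each with no overlap between genotypes. Tollip, which encodes an adaptor for ubiquitinated cargo, stood at 556.0 ± 13.2 CPM in mutants and 304.7 ± 34.2 CPM in wild types (SD, n = 3 each), a log2 fold change of 0.87 ± 0.12 (SE, edgeR adjusted p = 2.11e-05). Mvb12b, of ESCRT-I, stood at 114.4 ± 14.5 and 64.2 ± 7.51 CPM (0.83 ± 0.13, edgeR adjusted p = 8.63e-05). Snf8, the ESCRT-II partner of VPS25 and VPS36, stood at 10.5 ± 0.346 and 7.55 ± 1.38 CPM (0.48 ± 0.15, edgeR adjusted p = 0.0254). With no block none was called lower by edgeR, DESeq2 or limma-voom, and 1 was lower at an unadjusted edgeR p under 0.05. This was Mvb12a, also of ESCRT-I, at 1.29 ± 0.205 CPM in mutants and 1.96 ± 0.390 CPM in wild types with no overlap (-0.61 ± 0.24, edgeR adjusted p = 0.0724), and edgeR called it lower with the day as a block (0.00979), where DESeq2 also called 1 gene of the list lower.

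Of 22 WASH, CCC and retromer partner genes, 2 (9.09%, beside 12.9% of all genes) were called higher, Commd7 (0.53 ± 0.12) and Commd8 (0.38 ± 0.12), subunits of the CCC complex that works with retriever. Of 18 genes of tethering and of the switch from early to late endosomes 6 (33.3%) were called higher, the largest count of these lists. They included Mon1a (0.66 ± 0.18) and Mon1b (0.53 ± 0.15), whose proteins help replace RAB5 by RAB7. The others were Rab7 (0.43 ± 0.12), Rab5a (0.35 ± 0.12, edgeR adjusted p = 0.0379), Rab5c (0.40 ± 0.12) and Arl8a (0.46 ± 0.13), which moves lysosomes. Rab7 stood at 51.1, 57.6 and 51.9 CPM in mutants and 41.5, 43.2 and 34.4 CPM in wild types. Of 8 measured cargo receptors and GGA adaptors 2 (25%) were called higher, Sort1 (0.53 ± 0.12), the sorting receptor sortilin, and Gga3 (0.43 ± 0.15, edgeR adjusted p = 0.0419). Of 10 measured PX domain genes without an Snx symbol Nisch (0.51 ± 0.16, with overlapping pools) and Hs1bp3 (0.49 ± 0.17, edgeR adjusted p = 0.0409) were called higher (20%). DESeq2 called 2 of the WASH, CCC and retromer partners, 5 of the tethering list, 1 cargo receptor or adaptor and 1 PX domain gene higher. Over all genes its share was 11.6%.

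Among 21 measured endosomal phosphoinositide enzymes, whose lipids the PX domains bind, 4 were called higher and 1 lower (12.9% and 9.16% of all genes). The lower one was Mtmr1, a myotubularin that removes phosphate from those lipids, at 30.2, 37.5 and 36.6 CPM in mutants and 84.5, 96.5 and 74.6 CPM in wild types. No mutant pool came near a wild-type pool, and the log2 fold change was -1.29 ± 0.13 (SE, edgeR adjusted p = 6.54e-07). The higher ones were Mtmr10 (0.70 ± 0.16), Mtmr12 (0.51 ± 0.12), Mtmr9 (0.66 ± 0.18) and Pik3c2b (0.52 ± 0.15), the first 3 of which encode myotubularins without phosphatase activity.

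**Figure D5:**
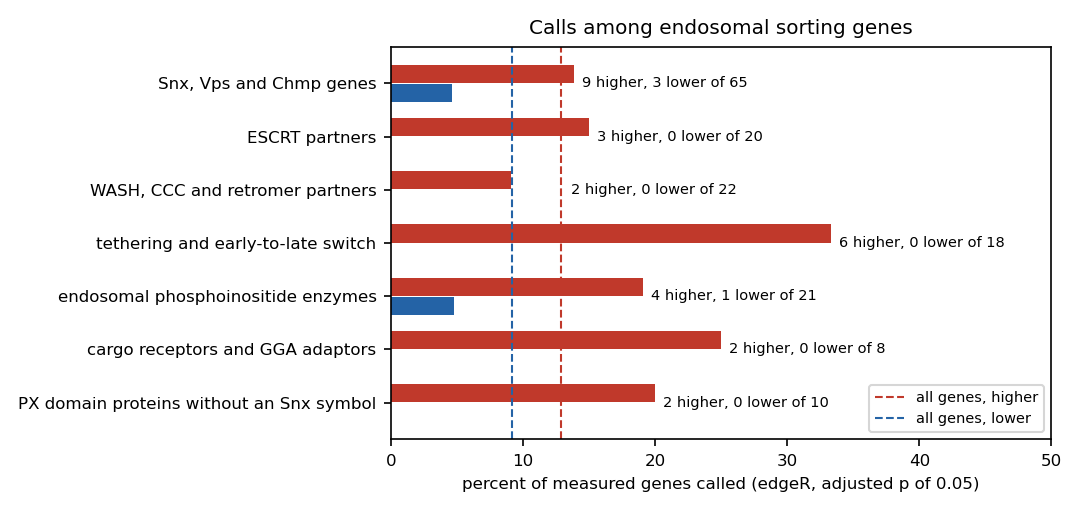
Percent of measured genes called higher (red) or lower (blue) in mutants among the 65 Snx, Vps and Chmp genes and in 6 lists of other endosomal sorting genes, with the shares over all genes as dashed lines (12.9% higher, 9.16% lower). The counts beside each bar show that 1 gene of the 6 lists, Mtmr1, was called lower.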

How the data were processed

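The deposited tables give a raw count and a length for each gene, per the file headers. CASAVA 1.8.2, Subread and featureCounts with the mm10 build are named in the submitters' processing notes, without their settings. Entrez identifiers were named from RefSeq of GRCm38.p6 (9636 of 9822) or GENCODE (2), and 184 stayed unnamed. The lowest third-highest CPM of any gene was 0.507, and filterByExpr removed 0 genes.

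The genotypes were compared with edgeR 4.0.16 (R 4.3.3; TMM, robust quasi-likelihood, genotype only, two-sided, Benjamini-Hochberg adjusted over all genes), a fit tested on simulated data. The alternatives tried were 4 scaling choices, limma-voom 3.58.1, DESeq2 1.42.0, filters, pools or days left out, and the day as a block. The genes, lists and alternatives were chosen with earlier results of these data known. Genes were named where called and, per class, for the 2 highest CPM per kb; per list, the 3 smallest p-values among called genes. Other named genes were picked after their values were seen. Deviations from group means correlated within days at 0.520, 0.350 and 0.547 over all genes, so the day pairs the pools. Biological variation was 14.2%, and 5.73% with the block.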

Additional observations from a re-analysis of the deposited data

How the results depend on the processing

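With the preparation day as a replicate block in edgeR the Snx, Vps and Chmp genes gave 16 higher and 8 lower calls, and the other endosomal sorting genes 29 and 3. With the replicate block in DESeq2 the counts were 12 and 3, and 21 and 3. Neither block changed a call of the 12 genes. Leaving out 1 pool, or both pools of a day, gave 0 to 11 higher and 2 to 3 lower calls, a median log2 fold change of -0.0016 to 0.0848, and 3 to 20 higher and 1 to 3 lower calls among the other endosomal sorting genes. The cause was not tested, though such fits hold fewer samples. The median was -0.030 with library size alone, 0.0083 with upper-quartile factors, 0.0097 without the 10 most abundant genes and 0.117 at a mean of at least 10 CPM. In this last setting 27 of the genes were tested. Of these, 7 (25.9%) were called higher and 5 (18.5%) lower, beside 24.0% and 25.0% of all genes tested there. Snx29, Vps54 and Chmp4b were added as lower calls, Snx3 and Vps37a were not called, and Vps53 was not tested. For the other endosomal sorting genes, whose remaining settings were chosen after seeing the data, scaling by library size alone gave 10 higher and 2 lower, and a mean of at least 10 CPM gave 8 and 4. At an edgeR adjusted p of 0.01, 5 of the 65 genes were called higher and 3 lower, and the share of all genes at that threshold was not counted. No named gene that was called changed direction in any setting. Snx30 was called in all 19 settings, Chmp1a and Chmp1b in 18 of 19, and Vps53 in 17 of 18.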
